A study of Mus musculus with 6 samples.

Results

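The insulin-like growth factor (IGF) ligand, receptors and binding proteins of kidney endothelial cells (ECs) are described here as a set of 9 genes, listed by name: Igf1, the receptors Igf1r, Igf2r and Insr, and the binding proteins Igfbp3, Igfbp4, Igfbp5, Igfbp6 and Igfbp7. Of 55401 genes in the count table, 38324 had any count, 18438 were tested, and those tested included 8 of the 9 genes. Kidney cells carrying CD31 and lacking CD45 were sorted from male mice, 3 CTRL (genotype Cre -/-; Rbpjf/f) and 3 RbpjΔEC (Cre +/-; Rbpjf/f), and their total RNA was sequenced in bulk. Both groups carry the floxed Rbpj alleles, are littermates and received 5 injections of 1.5 mg tamoxifen at 8 weeks of age, with harvest 12 weeks later and an age of 21 weeks in the labels. They differ by the Cdh5-driven, tamoxifen-inducible Cre, which is active in ECs of every vessel type, so the deletion of Rbpj, which encodes the DNA-binding partner of activated Notch, is not limited to one vascular bed. The controls have no Cre, so an effect of the active Cre itself and one of the deletion cannot be told apart. The libraries of a group are biological replicates according to the paper, and the p-values measure the spread between them.

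IGF1 is a small peptide hormone that signals through the receptor tyrosine kinase IGF1R, which passes the signal through IRS adaptors to PI3K and AKT, and the insulin receptor INSR is its close relative and can pair with it. Most IGF in the body is held by secreted binding proteins, which store it and limit its access to receptors until proteases cut them. IGF2R, the cation-independent mannose 6-phosphate receptor, takes IGF2 up for degradation and carries lysosomal enzymes. ECs secrete several of these binding proteins into the matrix and the blood.

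The libraries held between 39649171 and 47726850 counts on genes, and a count of 3, taken as the floor of detection, was worth 0.0633 to 0.0748 CPM (counts scaled to library size and corrected with edgeR's TMM factors). Values of single libraries are given in the order 1, 2, 3 within each group. CTRL 1 had counts on 33764 genes and the other 5 libraries on 25629 to 26785. Rbpj itself was at 28.1, 29.7 and 29.8 CPM in CTRL and at 28.8, 26.1 and 29.6 CPM in RbpjΔEC. These values sum the reads of the whole gene, while recombination removes only the floxed part, so they do not check the deletion. The paper reports recombination of the locus and lower Hey1, a Notch target. Here Hey1 was at 16.7, 19.9 and 22.6 CPM in CTRL and at 11.5, 8.91 and 14.6 CPM in RbpjΔEC. Its log2 fold change was -0.76 (SE 0.176, adjusted p = 0.0722 by edgeR's quasi-likelihood test). Between the groups, edgeR's quasi-likelihood test called 209 of the 18438 genes (1.13%) at an adjusted p under 0.05, with 106 higher (0.575%) and 103 lower (0.559%) in RbpjΔEC. With scaling by library size alone the split was 159 higher and 82 lower. EC markers were abundant in all libraries, with the summed CPM of 10 pan-endothelial genes between 19490 and 23652.

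In these ECs the family was dominated by a single binding protein. Levels of different genes were compared as CPM per kb of exon, since longer genes collect more reads. In CTRL, Igfbp5 was at 2413 ± 222 CPM per kb (SD, n = 3), and by its mean over all 6 libraries it had rank 8 of the 55141 genes with a known length. It took 1.43% ± 0.121 of all counts on genes in CTRL and 1.14% ± 0.0363 in RbpjΔEC (SD, n = 3 each). Igfbp3, the main IGF carrier in blood, followed in CTRL at 293 ± 68.0 CPM per kb, with rank 56 over all 6 libraries. Igfbp7, a distant relative with low affinity for IGFs that is deposited in vascular basement membranes, was at 53.6 ± 3.54 CPM per kb. Igfbp4, which holds IGFs in soluble form, was at 33.3 ± 4.85 CPM per kb. The receptors stood lower, with Insr at 23.1 ± 1.24 and Igf2r at 20.6 ± 1.58 CPM per kb, followed by the ligand gene Igf1 at 13.5 ± 1.26 and Igf1r at 11.4 ± 0.248 CPM per kb. In this order only Insr and Igf2r had overlapping ranges in the CTRL libraries, and every other pair of neighbours was separate. In RbpjΔEC the ranges of Igfbp4 and Insr, Insr and Igf2r, Igf2r and Igf1, and Igf1 and Igf1r overlapped, while Igfbp5, Igfbp3, Igfbp7 and Igfbp4 kept the same order without overlap. Igfbp6, a binding protein that prefers IGF2, had 1, 2 and 5 counts in CTRL and 5, 4 and 2 counts in RbpjΔEC. Since 3 of those 6 counts lie at or under the floor of 3, Igfbp6 was at the limit of detection in both groups and was not tested.

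The genes lie on different chromosomes except for Igfbp3 and Igfbp4, which are both on chromosome 11 but far apart. In GENCODE M21 on GRCm38, Igfbp5 spans chr1:72857932-72874884 and Igfbp7 spans chr5:77349240-77408041, both on the minus strand. The last exon of Igfbp7 shares 85 bases with Polr2b on the opposite strand, which had 3023 to 3732 counts per library. Airn, a noncoding RNA antisense to Igf2r, runs through its introns without exonic overlap and had 592 to 845 counts. The libraries are stranded, but the setting used to count strands is not given in the sources used here. Reads in such overlaps therefore cannot be assigned with certainty.

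Igfbp5 and Igfbp7 had the smallest p-values of the family, and the DNA before their start sites is shown because RBPJ binds its targets through the core letters TGGGAA. In RefSeq for GRCm38.p6 a window of 250 bases before the start was found for 8 of the 9 genes, Insr being the one not listed. The windows of Igfbp5 (chr1:72874885-72875115, minus strand, 231 bases once those in an annotated exon are left out) and Igfbp7 (chr5:77408046-77408295, minus strand, 250 bases) read 5′ to 3′, in lower case since no letters matched:
Igfbp5: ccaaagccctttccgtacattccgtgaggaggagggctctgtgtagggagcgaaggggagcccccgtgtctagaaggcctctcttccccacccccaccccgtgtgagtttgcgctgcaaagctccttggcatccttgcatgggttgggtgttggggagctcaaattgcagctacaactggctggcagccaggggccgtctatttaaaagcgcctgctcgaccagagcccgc
Igfbp7: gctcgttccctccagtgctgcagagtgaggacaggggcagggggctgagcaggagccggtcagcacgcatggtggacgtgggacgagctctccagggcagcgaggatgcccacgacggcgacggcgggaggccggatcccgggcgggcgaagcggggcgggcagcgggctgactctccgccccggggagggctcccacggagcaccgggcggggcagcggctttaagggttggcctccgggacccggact
Neither window held TGGGAA or its reverse complement TTCCCA. Among all 32851 promoter windows of 250 bases in the table, 21.6% held one of them, and of the 8 windows found here only that of Igf1 did, with 1 match. The Igf1 window lies wholly within an exon of GENCODE M21 (250 of 250 bases), so by that annotation it is not upstream of the gene. No match says only that these letters are not in this window.

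Igfbp5, a matrix-bound binding protein, was at 14724, 13061 and 15695 CPM in CTRL and at 11232, 10862 and 11580 CPM in RbpjΔEC. All 3 RbpjΔEC libraries lay below all 3 CTRL libraries. The fitted level in RbpjΔEC was 0.774 times that in CTRL (95% interval 0.674 to 0.889, log2 fold change -0.37, SE 0.0914). With an unadjusted p of 0.00168 and an adjusted p of 0.0761 over all tested genes by edgeR's quasi-likelihood test, Igfbp5 did not pass the threshold. It passed when CTRL 2, the lowest CTRL library, was left out (adjusted p = 0.0242). It also passed with DESeq2, the test that the paper used (adjusted p = 0.00183), and with no filter on low counts (adjusted p = 1.9e-05). Its adjusted p ranged up to 0.252 when CTRL 3 was left out. In RNA from bulk cells, fewer cells of a type and less RNA per cell cannot be told apart.

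Igfbp7 was at 65.3, 60.4 and 68.9 CPM in CTRL and at 45.6, 53.1 and 52.0 CPM in RbpjΔEC. As for Igfbp5, the groups did not overlap. The fitted level was 0.775 times that in CTRL (95% interval 0.682 to 0.880, log2 fold change -0.37, SE 0.0843, adjusted p = 0.0611 by edgeR's quasi-likelihood test), short of the threshold. Igfbp7 also passed without CTRL 2 (adjusted p = 0.0299), with DESeq2 (adjusted p = 0.0220) and with no filter on low counts (adjusted p = 0.00268), and without RbpjΔEC 1 its adjusted p was 0.249. The genes whose log2 CPM followed Igfbp7 most closely over the 6 libraries, among 10441 genes with a mean of at least 5 CPM, were Tmed10, a cargo receptor of the early secretory pathway (Pearson r = 0.998), Spcs2, a subunit of the signal peptidase (r = 0.997), and Col5a2, a fibrillar collagen chain (r = 0.997). These correlations rest on 6 libraries that share the group difference and are a description.

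None of the 8 tested genes of the family (0 of 8) passed the threshold, against 1.13% of all tested genes. At an unadjusted p under 0.05 there were 2, Igfbp5 and Igfbp7, both lower, and over all genes 1638 higher and 1589 lower (17.5% of those tested). The same 2 were the ones whose groups did not overlap, against 23.0% of all tested genes. Over the 8 tested genes 4 fitted log2 fold changes were above 0 and 4 below, with a median of 0.02, and over all tested genes the median was 0.01. DESeq2 and the fit with no filter on low counts each called 2 of 9, Igfbp5 and Igfbp7, where they called 1.52% and 3.75% of all 38324 genes.

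**Figure D1:**
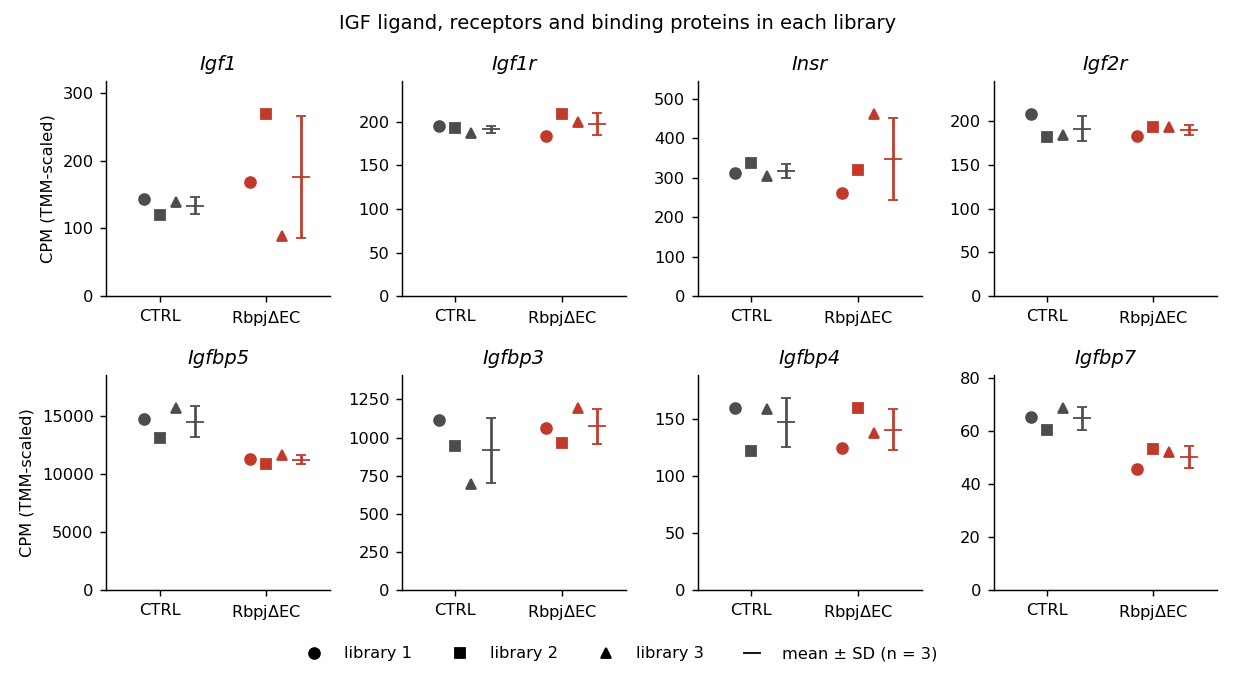
Each panel plots 1 gene, with TMM-scaled CPM on a linear axis from 0 and 1 symbol per library (circle, square and triangle for libraries 1, 2 and 3), CTRL in grey and RbpjΔEC in red, and a bar for the mean ± SD of 3 libraries. The red symbols lie below all grey ones for Igfbp5 and Igfbp7 and overlap them for the other 6 genes.

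Igfbp3 was at 1116, 942 and 692 CPM in CTRL and at 1059.6, 962 and 1196 CPM in RbpjΔEC. CTRL 3 was the lowest library and the groups overlapped. The log2 fold change was 0.23 (SE 0.172, adjusted p = 0.545 by edgeR's quasi-likelihood test), and the interval of the fold ran from 0.885 to 1.55. The value was 0.06 without CTRL 3 and 0.39 without CTRL 1. Igfbp4 was at 159.8, 122 and 159 CPM in CTRL and at 125, 160.1 and 138 CPM in RbpjΔEC, with ranges that were nearly the same in both groups. Its log2 fold change of -0.06 (SE 0.121, adjusted p = 0.821 by edgeR) came with a fold interval of 0.792 to 1.15.

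The ligand gene Igf1 was the most variable of the family in RbpjΔEC. It was at 143, 119 and 138 CPM in CTRL and at 169, 269 and 88.7 CPM in RbpjΔEC. RbpjΔEC 1 and RbpjΔEC 2 were above and RbpjΔEC 3 below every CTRL library. The log2 fold change was 0.39 (SE 0.440, adjusted p = 0.704 by edgeR), its interval from 0.580 to 2.98 in fold was the widest of the family, and without RbpjΔEC 2 the value was -0.05.

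Igf1r, the signalling receptor for IGF1, was among the steadiest genes of the set. It was at 195, 192 and 187 CPM in CTRL and at 184, 209 and 199 CPM in RbpjΔEC. The groups overlapped, with a log2 fold change of 0.05 (SE 0.0692, adjusted p = 0.775 by edgeR), and the 95% interval placed the fold between 0.929 and 1.15. Igf2r was at 209, 182 and 185 CPM in CTRL and at 183, 194 and 193 CPM in RbpjΔEC. The 95% interval for its fold was 0.887 to 1.11 (log2 fold change -0.01, SE 0.0730, adjusted p = 0.945 by edgeR), and the sign of this value turned with scaling by library size alone. Insr was at 311, 336 and 304 CPM in CTRL and at 261, 320.0 and 462 CPM in RbpjΔEC. RbpjΔEC 1 was the lowest and RbpjΔEC 3 the highest of the 6 libraries. The log2 fold change of Insr was 0.13 (SE 0.206, adjusted p = 0.787 by edgeR, fold interval 0.773 to 1.56), and without RbpjΔEC 3 it was -0.13.

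Ratios between pairs of members do not depend on how the libraries are scaled. Of the 3 ratios compared, that of Igfbp3 to Igfbp5, close relatives in sequence, was -3.72, -3.79 and -4.50 on the log2 scale in CTRL and -3.41, -3.50 and -3.28 in RbpjΔEC. Every RbpjΔEC library was above every CTRL library, and the difference of the means was 0.61 (SE 0.258, exact permutation test, two-sided, p = 0.1, adjusted over the 3 ratios 0.15), where 0.1 is the smallest p that 3 libraries against 3 allow. CTRL 3 carried part of this value, since the difference was 0.36 without it. The log2 ratio of Igfbp7 to Igfbp4 was -1.29, -1.02 and -1.21 in CTRL and -1.45, -1.59 and -1.40 in RbpjΔEC. It was lower in all 3 RbpjΔEC libraries than in any CTRL library, by a mean difference of -0.31 (SE 0.0983, exact permutation test, p = 0.1, adjusted 0.15). The log2 ratio of Igf1r to Insr, receptors that can form hybrids, was -0.67, -0.81 and -0.70 in CTRL and -0.50, -0.61 and -1.21 in RbpjΔEC. The last of these libraries stood apart, and the difference of -0.05 (SE 0.224, exact permutation test, p = 1) was 0.17 without it.

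Summed per kb of exon, mRNA of the 5 binding proteins was at 2793 ± 208 CPM per kb in CTRL and 2285 ± 94.5 CPM per kb in RbpjΔEC (SD, n = 3 each). Igfbp5 made up 86.3% ± 2.55 of this sum in CTRL and 81.8% ± 0.824 in RbpjΔEC. The share of Igfbp3 was 10.5% ± 2.61 in CTRL and 15.0% ± 1.02 in RbpjΔEC. Igfbp7 contributed 1.92% ± 0.0508 and 1.82% ± 0.172, and Igfbp4 1.19% ± 0.0896 and 1.40% ± 0.221, in the same order. These shares add up to a fixed total, so they cannot move independently, and they were not tested.

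**Figure D2:**
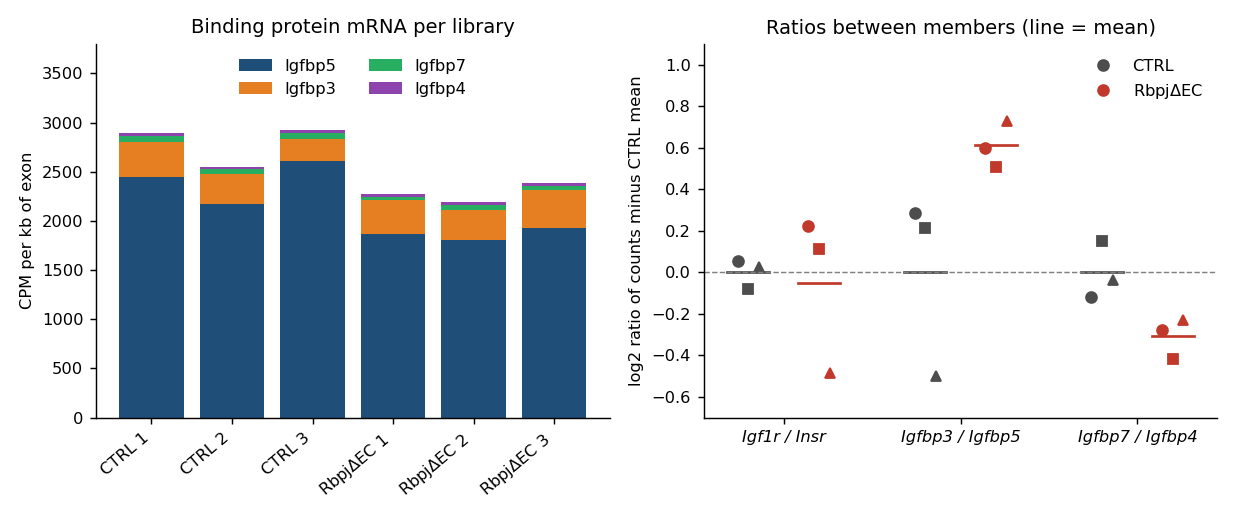
Left, stacked bars from 0 give the CPM per kb of exon of Igfbp5, Igfbp3, Igfbp7 and Igfbp4 in each of the 6 libraries. Right, the log2 ratio of counts minus the CTRL mean for 3 pairs of genes, 1 symbol per library and a line for the group mean, where the red RbpjΔEC symbols lie above all grey CTRL symbols for Igfbp3 to Igfbp5 and below them for Igfbp7 to Igfbp4.

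Other genes of the pathway, 52 in 5 lists, gave 42 tested genes. None passed the threshold (0 of 42, against 1.13% of all genes), and at an unadjusted p under 0.05 there was 1 higher and 5 lower by edgeR's quasi-likelihood test (6 of 42, against 17.5% of all genes). Fitted values were above 0 for 14 and below 0 for 28, with a median log2 fold change of -0.04. DESeq2 called 2 of 52, Irs1 and Pappa, against 1.52% of all genes. The fit with no filter on low counts called 5 of 52, Irs1, Grb14, Insrr, Pappa and Htra1, against 3.75% of all genes. Not tested for low counts were Ins1, Ins2, Igfbp1, Igfbp2, Igfbpl1, Insrr, Irs3, Irs4, Igf2bp1 and Igf2bp3.

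The list of 4 proteases that cut binding proteins or process receptors (Pappa, Pappa2, Htra1 and Furin) and 2 inhibitors (Stc1 and Stc2) had all 6 fitted values below 0 (median log2 fold change -0.38). Of the 6, 3 had an unadjusted p under 0.05, against 17.5% of all tested genes, and 4 had no overlap between the groups, against 23.0%. Htra1, a secreted protease that cleaves binding proteins and other matrix proteins, was at 12.7, 12.8 and 17.8 CPM in CTRL and at 8.96, 10.9 and 10.6 CPM in RbpjΔEC. The groups did not overlap, with a log2 fold change of -0.51 (SE 0.151, adjusted p = 0.115 by edgeR). Furin, which cuts the precursors of IGF1R and INSR, was at 172, 169.6 and 169 CPM in CTRL and at 154, 149 and 148 CPM in RbpjΔEC. The difference was small but separate in all libraries, with a log2 fold change of -0.18 (SE 0.0621, adjusted p = 0.165 by edgeR). Pappa, whose product cleaves IGFBP4, was low, at 3.81, 1.27 and 1.30 CPM in CTRL and at 0.758, 0.0715 and 0.623 CPM in RbpjΔEC. CTRL 1 was its highest library, and the log2 fold change was -2.12 (SE 0.745, adjusted p = 0.204 by edgeR). Pappa had 153, 60 and 55 counts in CTRL and 34, 3 and 25 in RbpjΔEC, so its libraries spread widely within each group. Pappa2, at -2.95, was also highest in CTRL 1, with 3.46 CPM there and 0 to 0.663 CPM in the other libraries. Distal tubule markers were highest in CTRL 1 as well, with Aqp2 at 9.56, 2.68 and 2.22 CPM in CTRL and 0.736, 0.262 and 1.12 CPM in RbpjΔEC, and Slc12a1 at 134, 63.9 and 72.4 CPM in CTRL and 44.3, 17.2 and 52.3 CPM in RbpjΔEC. The proximal tubule markers Slc34a1, Lrp2, Cubn, Miox and Kap were instead lowest in CTRL 1. Markers of other cells varied, with the leukocyte gene Csf1r and the mural gene Notch3 highest in CTRL 1 and Acta2 highest in CTRL 3. The part of tubule or other cells in the values of Pappa and Pappa2 was not tested.

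Among the receptor-proximal adaptors and phosphatases, 10 of 13 were tested, with 4 fitted values above 0 and 6 below (median log2 fold change -0.03). Irs1, the docking protein that links IGF1R and INSR to PI3K, was at 15.6, 16.4 and 13.6 CPM in CTRL and at 10.3, 11.7 and 10.2 CPM in RbpjΔEC. No library overlapped, and the log2 fold change of -0.50 (SE 0.120, adjusted p = 0.0668 by edgeR) missed the threshold. Grb14, an adaptor that inhibits the insulin receptor, was at 6.37, 5.97 and 4.76 CPM in CTRL and at 3.25, 4.15 and 2.74 CPM in RbpjΔEC (log2 fold change -0.75, SE 0.213, adjusted p = 0.104 by edgeR). Shc1, which links receptors to the MAP kinase pathway, was at 54.9, 56.5 and 55.1 CPM in CTRL and at 68.6, 63.1 and 62.6 CPM in RbpjΔEC (log2 fold change 0.22, SE 0.0714, adjusted p = 0.138 by edgeR). In this list 4 of the 10 tested genes had no overlap between the groups (these 3 and Grb10), against 23.0% of all tested genes.

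The downstream PI3K, AKT, mTOR and FoxO list held 20 genes, all tested. Of these, 9 fitted values were above 0 and 11 below. The median log2 fold change was -0.02, and none had an unadjusted p under 0.05. The 3 smallest p-values belonged to Gsk3b, a kinase inhibited by AKT (log2 fold change -0.10, adjusted p = 0.447 by edgeR), Rps6kb1, the S6 kinase (log2 fold change 0.12, adjusted p = 0.478), and Tsc1, a brake on mTOR (log2 fold change 0.12, adjusted p = 0.480). Of the other ligands and binding proteins 5 of 10 were tested, with a median log2 fold change of -0.05. Igfals, which joins IGF and IGFBP3 in the blood, had 0.84 (SE 0.535, adjusted p = 0.447) from under 1 CPM. Igf2 had -0.48 (SE 0.416, adjusted p = 0.582), also from about 1 CPM or less in most libraries. Esm1, an EC-secreted proteoglycan, was at 1031, 996 and 1136 CPM in CTRL and at 919, 994 and 1134 CPM in RbpjΔEC (log2 fold change -0.05, SE 0.0902, adjusted p = 0.793). Igf2bp2, the only tested gene of the IGF2 mRNA-binding proteins, had -0.44 (SE 0.269, adjusted p = 0.429).

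**Figure D3:**
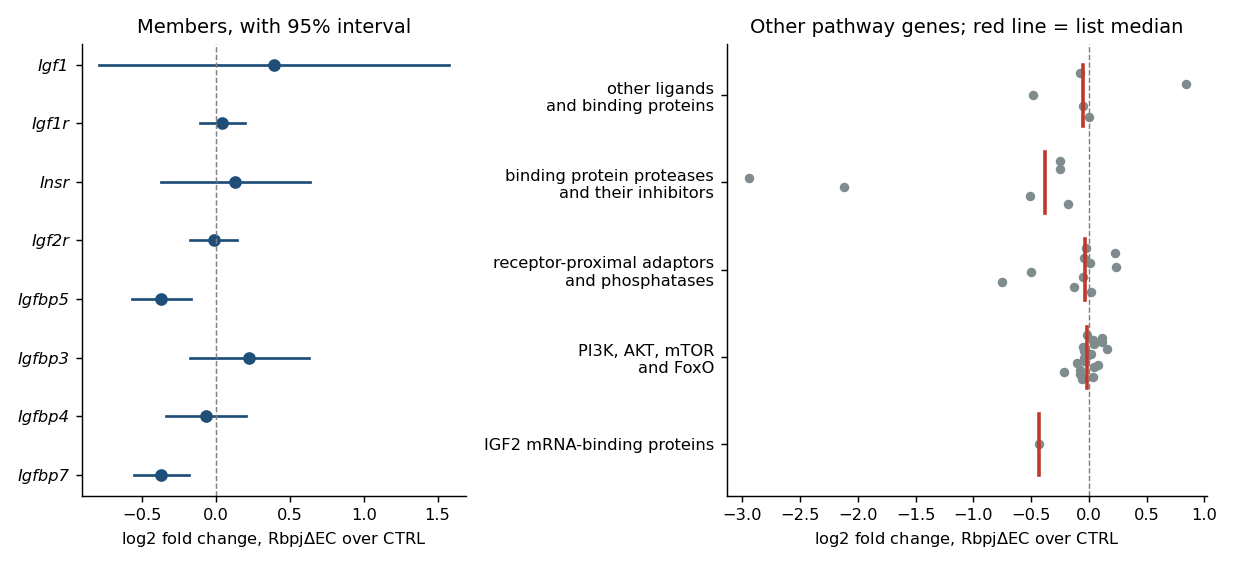
Log2 fold changes of RbpjΔEC over CTRL from edgeR. Left, the 8 tested genes of the family with 95% intervals, of which those of Igfbp5 and Igfbp7 exclude 0 without adjustment. Right, 1 point per tested gene of the 5 pathway lists with the list median in red, where the genes of the PI3K, AKT, mTOR and FoxO list lie close to 0 and all 6 points of the protease list lie below it.

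Summed markers of ECs are given beside Igfbp5 and Igfbp7. Over all tested genes, 1.13% were called by edgeR and 17.5% had an unadjusted p under 0.05. The summed CPM of the pan-endothelial markers was 23311, 21512 and 23652 in CTRL and 19811, 19593 and 19490 in RbpjΔEC, with 8 of 10 genes below 0 and none called by edgeR (at an unadjusted p under 0.05, 4 were lower and 1 higher). Relative to this sum, Igfbp5 was at 63.4% ± 2.83 in CTRL and 57.2% ± 2.03 in RbpjΔEC, and Igfbp7 at 0.284% ± 0.00632 and 0.256% ± 0.0224 (SD, n = 3 each). Both ratios were 0.902 times the CTRL value without overlap, against 0.774 and 0.775 for the fitted levels. The glomerular EC markers, 6 of 6 below 0 and 3 called (Gata5, Lpl and Sema5a), summed to 1805 to 2285 CPM in CTRL and 1194 to 1629 CPM in RbpjΔEC. Relative to that sum Igfbp5 and Igfbp7 were each 1.20 times their CTRL value, with overlap.

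Markers of other cells were measured in the same sorted RNA. The calls in each list stand against 1.13% of all tested genes. The mural markers had 9 of 9 tested genes below 0 and 3 called, and summed to 87.6 to 114 CPM in CTRL and 36.1 to 58.4 CPM in RbpjΔEC. The fibroblast markers had 4 of 4 tested genes below 0 and 2 called, and summed to 138 to 169.5 CPM in CTRL and 69.9 to 96.1 CPM in RbpjΔEC, mostly from Pi16, with Dpt at 0 in every library. The leukocyte markers summed to 15.5 to 18.9 CPM in CTRL and 24.2 to 29.6 CPM in RbpjΔEC, with Cd68 called higher, 4 of 6 tested genes below 0 and Cd3e at 0 in every library. Cd68 alone carried the higher sum, and without it the others summed to 3.23 to 11.9 CPM in CTRL and 2.14 to 4.51 CPM in RbpjΔEC. The tubule markers ranged from 294 to 423 CPM in CTRL and from 128 to 461 CPM in RbpjΔEC, with 5 of 9 genes above 0, 4 below and none called. The 5 above 0 (Slc34a1, Lrp2, Cubn, Miox and Kap) were highest in RbpjΔEC 3, and the 4 below were the distal genes Umod, Slc12a1, Slc12a3 and Aqp2. Arterial EC markers had 7 of 9 genes below 0 and 1 called (Jag1), and summed to 1882 to 2019 CPM in CTRL and 1783 to 1887 CPM in RbpjΔEC. Lymphatic EC markers summed to 622 to 718 CPM in CTRL and 645 to 678 CPM in RbpjΔEC, almost all of it Flt4. Without Flt4 the sum was 25.1 to 41.3 CPM in CTRL and 18.9 to 23.6 CPM in RbpjΔEC, with 3 of 5 tested genes below 0 (Lyve1, Mmrn1 and Ccl21a, log2 fold changes -1.19, -1.16 and -1.47) and 2 above (Prox1 at 0.17 and Flt4 at 0.01). None was called, 4 of the 5 (all but Flt4) had no overlap, against 23.0% of all tested genes, and the list median was -1.16. Podocyte markers summed to 223 to 246 CPM in CTRL and 251 to 271 CPM in RbpjΔEC, with 3 of 5 below 0. The part of these cells in the values of the IGF genes was not tested.

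**Figure D4:**
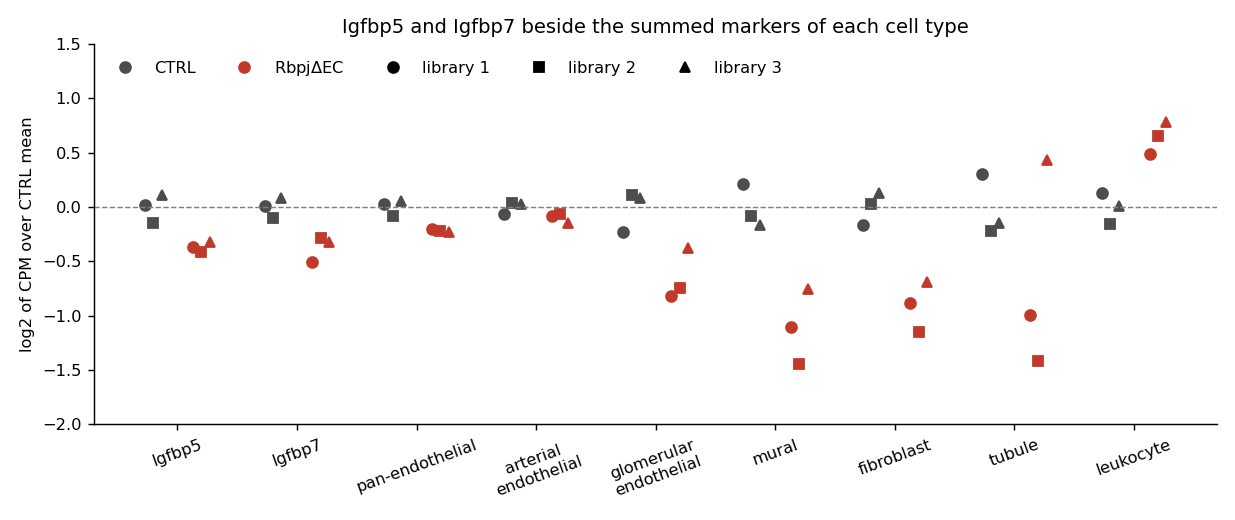
Log2 of CPM over the CTRL mean, 1 symbol per library, for Igfbp5, Igfbp7 and the summed markers of 7 cell types, with CTRL in grey and RbpjΔEC in red. The RbpjΔEC libraries lie below all CTRL libraries for Igfbp5, Igfbp7 and the pan-endothelial, glomerular EC, mural and fibroblast sums, and above them for the leukocyte sum, which without Cd68 overlaps between the groups.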

How the data were processed

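Bulk RNA of sorted kidney ECs was compared between 3 CTRL and 3 RbpjΔEC libraries, grouped by the sample labels. The authors sequenced all 6 libraries (stranded total RNA) in a common run, aligned reads with nf-core/rnaseq to GRCm38.p6 with GENCODE annotation (Trim Galore 0.6.4, STAR 2.6.1d and featureCounts of Subread 1.6.4 per the labels' processing notes) and deposited raw counts per gene, not normalized. The deposited counts were scaled by TMM and tested with edgeR 4.0.16 under R 4.3.3 (filterByExpr, robust glmQLFit, glmQLFTest), with p-values adjusted by Benjamini-Hochberg over 18438 genes. Standard errors are the log2 fold change over the root of F, and intervals are 95% t intervals on its degrees of freedom. The 3 ratios were compared by exact permutation over libraries (20 groupings). Positions and exonic lengths are those of GENCODE M21 (GRCm38), where 55141 of 55401 genes were found, and promoters from RefSeq for GRCm38.p6.

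At 39649171 to 47726850 counts per library, counting error is small for the tested members but not for pathway genes with few counts (Igfals had 10 to 26 per library), while the floor of 3 counts covers counting error only. No 2 libraries of a group agreed within sampling noise. By the mean chi-square of counts per gene, where smaller is closer, CTRL 2 was at 33.8 with CTRL 1 and 36.7 with CTRL 3. With RbpjΔEC 1, 2 and 3 it was at 29.7, 33.9 and 23.9, so CTRL 2 was no closer to its own group. A gene short of the threshold is not thereby unchanged. How often the fit misses changes of the size seen in Igfbp5 and Igfbp7 was not tested. The members and gene lists were chosen with earlier results of these data known. Named genes were all members and the pathway genes past the threshold, or otherwise the 3 with the smallest p in each list. The 3 nearest patterns of the member with the smallest p were also named. Genes outside this rule were named too, such as Pappa2, Grb10, genes not tested and marker genes. The order of levels, shares of the family, promoter search and levels relative to summed markers were chosen after values were seen and carry no test. Alternatives covered scaling, the low-count filter, DESeq2 1.42.0, limma 3.58.1 voom, a replicate block and each library left out. DESeq2 was run with outlier and independent filtering off, as in the paper.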

Additional observations from a re-analysis of the deposited data

How the results depend on the processing

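Over all genes, 209 calls became 1436 with no low-count filter, 584 with DESeq2 and 344 with the replicate number as a block, and 21 to 700 with 1 library left out (21 without RbpjΔEC 1, 24 without CTRL 3, 48 without RbpjΔEC 2, 54 without CTRL 1, 521 without RbpjΔEC 3 and 700 without CTRL 2). Scaling by size factors (211) or library size (241), a minimum of 1 CPM in 3 libraries (214) and voom (147) stayed within 1.5 times. Of the IGF members, 0 calls became 2, Igfbp5 and Igfbp7, with no low-count filter and with DESeq2, and 0 to 2 with 1 library left out (2 without CTRL 2). Of the other pathway genes, 0 calls became 5 with no filter (Irs1, Grb14, Insrr, Pappa and Htra1), 2 with DESeq2 (Irs1 and Pappa), 1 with the replicate block (Pappa), and 0 to 1 with 1 library left out (Stc1 without RbpjΔEC 3). Causes of these changes were not tested.

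Of 104 alternative values of the members' fold changes, 92 kept direction and side of the threshold, 6 passed it (Igfbp5 and Igfbp7, as given above) and 6 turned sign, none of them called: Igf1 without RbpjΔEC 2, Igf2r with library size alone (0.029), without CTRL 1 and without RbpjΔEC 1 (0.013), Insr without RbpjΔEC 3 and Igfbp4 without RbpjΔEC 1. With 1 library left out the log2 fold change ranged from -0.051 to 0.713 for Igf1, from -0.057 to 0.048 for Igf2r, from -0.126 to 0.302 for Insr and from -0.187 to 0.017 for Igfbp4, and without a change of sign from 0.056 to 0.389 for Igfbp3, from 0.0028 to 0.093 for Igf1r, from -0.446 to -0.311 for Igfbp5 and from -0.424 to -0.303 for Igfbp7. The log2 ratio of Igf1r to Insr ranged from -0.19 to 0.17 with 1 library left out and turned sign without RbpjΔEC 3, while the other two ratios kept their sign. Left-out fits of an arm with 2 libraries pool the spread with the other arm.

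The shared replicate numbers do not pair the libraries: correlations of same-numbered deviations were 0.023, 0.0092 and 0.0054, and each CTRL library correlated better with another number. With the block, Igfbp5 was at an adjusted p of 0.0538 and Igfbp7 at 0.0662 by edgeR, and it changed no call of a member. For the ratios, the mean difference within numbers equals the difference of the group means by construction (-0.05, 0.61 and -0.31), so it is no check, and 3 pairs allow no exact p under 0.25.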
